A study of Oryza sativa Japonica Group with 12 samples.

Results

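Of 19207 rice genes tested, 161 were higher in roots 6 h after a leaf spray with piperonylic acid and lower 24 h after it, each time against mock roots. They were chosen by their own measured values. At 6 h the mean log2 value of the treated libraries had to exceed that of the mock libraries by at least 0.5, with every treated library above every mock library. At 24 h the mean had to be at least 0.3 lower in treated roots, with no demand on single libraries. The 6 h condition was met by 543 genes, or 2.83% of those tested, and the 24 h condition by 1952, or 10.2%. The 161 make up 29.7% of the former and 8.25% of the latter. In contrast, 47 genes that met the 6 h condition were higher by at least 0.3 at 24 h as well. The share of all genes tested that were so much higher at 24 h is not given here. Nothing is therefore read from 161 against 47. Over the 543 genes the median 24 h difference was -0.10, with 350 negative. Without mock replicate 2 of 24 h that median was -0.02, with 291 negative. Because both treatment differences chose the 161 genes, they are given as a description, with no test.

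The plants were seedlings of Nipponbare, a japonica cultivar of Oryza sativa, grown at 28 °C with 12 h of light and transplanted 5 days after germination. All plants were sprayed 13 days after transplanting. Treated plants received 300 µM piperonylic acid with 0.1% Tween 20, and mock plants a matching mock spray whose make-up is not spelled out in the labels. Roots of 4 plants were pooled for each sample, and each of the 4 groups (mock and treated, at 6 h and 24 h) had 3 samples, with plants 13 days past transplanting at 6 h and 14 days at 24 h. The series title speaks of roots inoculated with Meloidogyne graminicola, a root-knot nematode, and the source names call the spray the second treatment, but the growth and treatment protocols describe neither an inoculation nor an earlier spray. The spray went onto the leaves, and the roots were sampled.

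Piperonylic acid inhibits cinnamate 4-hydroxylase, which turns cinnamic acid into p-coumaric acid at the entrance of the phenylpropanoid pathway. That pathway supplies lignin, flavonoids and many defence compounds. Rice also defends itself with diterpenoid phytoalexins, small antimicrobial compounds made by groups of neighbouring genes, and with pathogenesis-related (PR) proteins. The table names genes by locus identifier, in which the digits after Os give the chromosome and the later digits follow the order along it. No name or product could be tied to any of the 161 identifiers, since the reference table matched 0 of them and 1 of the 35833 in the table, so they are described by identifier, position and level, with no role assigned to a single one.

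Libraries held between 6302056 and 10254382 recovered reads, apart from replicate 1 of the 24 h mock group with 20301774. All values below are normalised counts, that is, reads divided by a size factor, and differences are on the scale of log2(normalised count + 2), which understates changes of genes with few reads. The libraries were made from the 3′ ends of transcripts of whole roots, so fewer cells of a type and less RNA per cell cannot be told apart. Identifiers listed as root markers summed to between 38661 and 56248 normalised counts per library, and those listed as leaf markers to between 475 and 2029. The identifiers of both lists were recalled, and no file used here holds their names. In many of the 161 genes mock replicate 2 of 24 h was far above its group, so 24 h summaries are also given without it.

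Leaving out single libraries changed the set at both times. Each library of 6 h left out in turn kept 146 to 157 of the 161 genes within the conditions. Separation cannot be lost with fewer libraries, so only the bound on the 6 h mean difference could remove genes there. At 24 h dropping mock replicate 2 kept 84 genes, dropping treated replicate 3 kept 103 and dropping treated replicate 2 kept 130, while each of the others kept 146 to 150. The median log2 difference between treated and mock roots was 0.84 at 6 h, with a range of 0.51 to 2.90, and -0.51 at 24 h, with a range of -2.37 to -0.30. Over all genes tested these medians were 0.01 and -0.01. Without mock replicate 2 the 24 h median of the 161 was -0.33, and without treated replicate 3 it was -0.38. With mock replicate 2 left out, 84 of the 161 were still lower by at least 0.3, where 9.18% of all genes tested were. Of the others 41 lay between that bound and 0, and 36 were higher in treated roots. The treated and mock libraries of 24 h were fully separated in 46 of the 161, against 5.59% of all genes tested, and in 51 without mock replicate 2, against 9.91%.

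Each library was given a score, its log2 values averaged over the genes after each gene was centred on the 6 libraries of its time. At 6 h the mock libraries scored -0.46, -0.53 and -0.53, and the treated ones 0.60, 0.69 and 0.24. Treated replicate 3 was thus nearest to mock roots at 6 h, and it was the lowest treated library in 103 of the 161 genes, against 33.3% of all genes tested. At 24 h the mock libraries scored 0.02, 0.91 and -0.03, and the treated ones 0.17, -0.36 and -0.71. Mock replicates 1 and 3 lay below treated replicate 1, so the groups overlapped. Mock replicate 2 was the highest of the 6 libraries of 24 h in 100 of the 161 genes, against 23.6% of all genes tested, and treated replicate 3 the lowest in 92, against 18.6%. The choice asked for lower treated than mock means at 24 h, which by itself raises both counts. The leaf marker list moved with the 6 h groups, at 732 to 2029 in mock and 475 to 693 in treated libraries, and its part in the result was not tested. At 24 h its ranges overlapped, at 533 to 1727 and 567 to 1649.

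**Figure D1:**
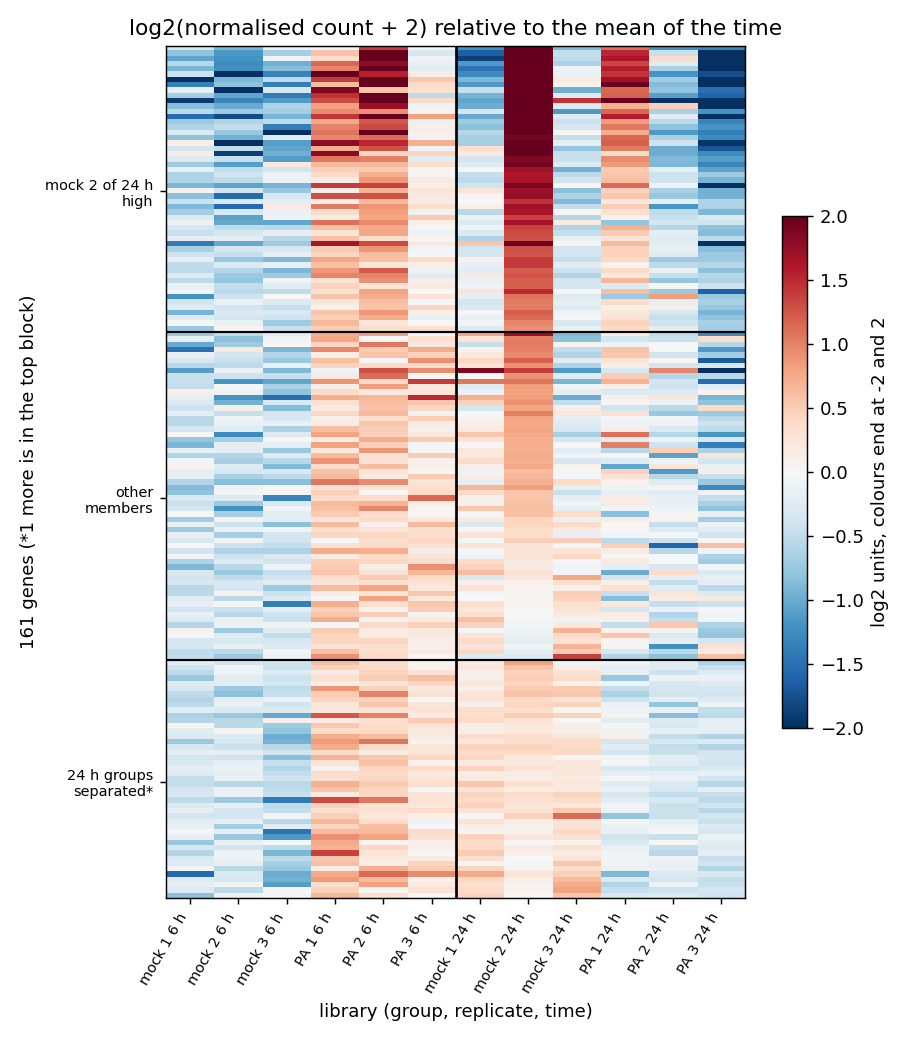
Each row is 1 of the 161 genes and each column 1 library, coloured by log2(normalised count + 2) minus the mean of the 6 libraries of that time. The top block holds 54 genes in which mock replicate 2 of 24 h was high, and the bottom block the other 45 of the 46 genes whose 24 h groups were separated.

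By limma over all genes, 35 of the 161 were called higher at 6 h, where 0.76% of all genes tested were called in that direction. At 24 h 5 of them were called lower, against 0.0573%, and the effect was called lower at 24 h than at 6 h in 33, against 0.344%. Since the same differences chose the genes, nothing is read from these shares. The count at 6 h rested on single libraries. Leaving out mock replicate 3 of 6 h left 2 calls, and leaving out treated replicates 1 and 2 in turn left 3 and 4. Over all genes tested the 146 calls went down to 3, 5 and 11 in the same refits, so the loss was not particular to the 161. Without mock replicate 1 or 2 there were 20 or 19, and dropping treated replicate 2 of 24 h gave 23. At 24 h 2 calls were left when mock replicate 2 or 3, or treated replicate 2 or 3, was dropped. The 11 calls over all genes tested went down to 2, 2, 3 and 5 in those refits. The labels hold 2 sets of replicate numbers. With libraries paired within each time by the numbers of the titles, the counts were 47 at 6 h, 7 at 24 h and 51 for the difference. Grouped by the numbers of the source names they were 7, 0 and 12. Among all 19207 genes tested they were 252, 15 and 132 by the titles, and 20, 0 and 16 by the source names. The source-name numbers form no full pairs, since treated samples carry 1, 1 and 2 at 6 h and 1, 2 and 2 at 24 h. Mock replicate 3 of each time then stands alone under its number and adds nothing to the differences. At 24 h 46 of the 161 had an unadjusted p under 0.05 by limma with the source-name grouping, and 43 without pairing. The choice of genes lower at 24 h favours small p, and these numbers were not counted over all genes. Nothing is read from them. Without pairing, the count for the difference was 21 without mock replicate 3 of 6 h, 20 without treated replicate 2 of 6 h, and 20 and 21 without treated replicates 2 and 3 of 24 h. The 66 such calls over all genes tested went down to 29, 28, 27 and 35 in these refits.

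In 46 genes the groups were separated at both times, and since that choice favours a small spread within groups, their spread is given as a description. Their scores at 24 h were 0.29, 0.30 and 0.33 in mock and -0.25, -0.31 and -0.36 in treated roots, a spread of 0.02 and 0.05 (SD, n = 3 each). At 6 h they were -0.38, -0.33 and -0.58 in mock and 0.56, 0.49 and 0.24 in treated roots. The median 24 h difference was -0.61, and -0.62 without that library, against 0.70 at 6 h. Of the 35 genes called at 6 h 27 were among these 46, and so were the 5 called at 24 h. The fit pooled the spread of each gene over all 12 libraries, so separation at 24 h favours calls at 6 h too. The 54 genes with mock replicate 2 high, described below, had 0 calls at 6 h at a median difference of 1.21. Nothing on the 6 h response is therefore read from the overlap. The median mean count of the 46 was 156, against 91.2 for the 161 and 114 for all genes tested.

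**Figure D2:**
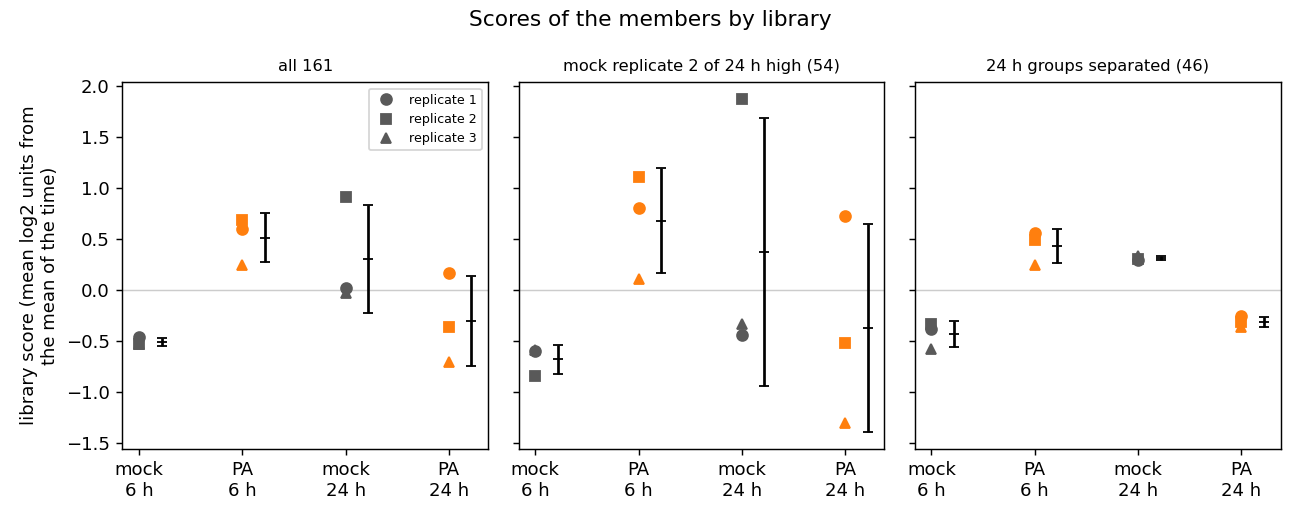
Points are library scores by group, with the shape giving the replicate, and bars are mean ± SD of 3 libraries. In the 46 separated genes the 24 h mock scores lie between 0.29 and 0.33, and in the 54 genes of the middle panel they run from -0.44 to 1.87.

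The 5 genes called lower at 24 h were also called higher at 6 h and different between the times, and they are named here because they are few. With grouping by the source-name numbers limma called 0 of the 5 at 24 h. Os02g0684400, on chromosome 2, had the highest mean level of the 46. Its mock libraries of 6 h stood at 927, 845 and 781 normalised counts and its treated ones at 1921, 1467 and 1363. At 24 h the mock libraries stood at 2360, 2359 and 2256 and the treated ones at 1494, 1242 and 1136. On these values, with no general shift between the times taken off, treated roots were between the mock levels of 6 h and 24 h at both times. The log2 difference was 0.88 ± 0.12 (SE) at 6 h and -0.86 ± 0.12 (SE) at 24 h.

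Os01g0603300, on chromosome 1, had 1044, 1046 and 909 normalised counts in mock and 1565, 1366 and 1421 in treated roots at 6 h. At 24 h it had 2180, 2207 and 2223 in mock and 1289, 1230 and 1273 in treated roots. Its fitted error, pooled over both times, was the smallest among these 5 genes. The differences were 0.54 and -0.80, each ± 0.08 (SE). Os03g0231150, on chromosome 3, had 375, 429 and 343 normalised counts in mock and 536, 628 and 556 in treated roots at 6 h, and 576, 542 and 578 in mock and 338, 297 and 306 in treated roots at 24 h. In this gene treated roots of 24 h lay below every mock library of both times.

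Os06g0538400, on chromosome 6, had 469, 414 and 387 normalised counts in mock and 671, 664 and 699 in treated roots at 6 h. At 24 h the values were 930, 935 and 1100 in mock and 703, 563 and 519 in treated roots. The treated values of the 2 times overlapped, while mock roots were higher by 1.22 log2 units at 24 h than at 6 h. Both comparisons hold the general shift between the times, a median of 0.30 in mock and 0.29 in treated roots over all genes. Os02g0227100, on chromosome 2, had 98.6, 93.3 and 94 normalised counts in mock and 228, 198 and 175 in treated roots at 6 h. At 24 h it had 305, 257 and 240 in mock and 174, 169 and 138 in treated roots, differences of 1.05 ± 0.13 (SE) at 6 h and -0.73 ± 0.13 (SE) at 24 h.

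The genes with the largest 24 h differences among the 46 included several of low level. Os11g0704300 had 7.31, 7.39 and 9.4 normalised counts in mock and 14.8, 11.9 and 11.2 in treated roots at 6 h. The 24 h values were 8.77, 12.6 and 21 in mock and 4.17, 5.77 and 6.21 in treated roots, a difference of -1.07 ± 0.35 (SE) that rests on few reads. Os02g0541500 was at 0, 2.77 and 0.94 in mock and 7.87, 10.9 and 9.34 in treated roots at 6 h, and at 30.7, 21.4 and 24.9 in mock and 8.34, 13.9 and 13.4 in treated roots at 24 h. Mock roots of this gene thus went from almost no reads at 6 h to the highest group at 24 h, with treated roots between them at both times. Os06g0494400 had 14.6, 11.1 and 15 in mock and 31.5, 44.8 and 27.1 in treated roots at 6 h, and 25.3, 31.5 and 30.6 against 12.5, 15 and 15.5 at 24 h.

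Os10g0466800, on chromosome 10, had 67, 61 and 50.8 normalised counts in mock and 252, 211 and 118 in treated roots at 6 h. The later values were 260, 289 and 279 in mock and 213, 111 and 139 in treated roots. The differences were 1.61 ± 0.28 (SE) at 6 h and -0.88 ± 0.28 (SE) at 24 h, and the second was -0.85 without mock replicate 2. Os07g0643800 was the 1 gene of the 46 in which mock replicate 2 was also far above the others. It had 69.4, 36 and 35.7 in mock and 164, 146 and 81.3 in treated roots at 6 h, and 82.4, 320 and 113 against 57, 77.4 and 75.5 at 24 h. Its 24 h difference was -1.03 ± 0.50 (SE), and -0.47 without that library.

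Between the times, mock and treated roots changed order in these genes, as the choice required. Over all genes tested, mock roots had a median log2 difference of 0.30 between 24 h and 6 h and treated roots 0.29, a shift left by the deposited scaling. In the 46 separated genes these medians were 1.16 in mock and -0.20 in treated roots, that is 0.86 above and 0.49 below the general shift. The mock difference was above the general shift in 43 of the 46, and the treated one in 7. After the general shift was taken off, treated roots of 6 h lay below mock roots of 24 h in 26 of the 46, and treated roots of 24 h lay above mock roots of 6 h in 31. These comparisons use the libraries that chose the genes, and a choice of low mock values at 6 h and high ones at 24 h alone raises the mock difference, so they describe the set and carry no test.

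Another 54 genes, 1 of them also among the 46, were those in which mock replicate 2 of 24 h exceeded both other mock libraries of that time by at least 1 log2 unit. This held for 33.5% of the 161 and for 2.49% of all genes tested. Of the 382 genes that met the 6 h condition without being members, 22 did so, or 5.76%. The 24 h condition itself used this library. A high value in it moves a gene into the 161 and out of the 382, so the shares carry no test. The division was made after the values had been seen. The 24 h scores of the 54 were -0.44, 1.87 and -0.33 in mock and 0.72, -0.52 and -1.30 in treated roots. Their median 24 h difference was -0.68, and 0.08 without mock replicate 2, when 32 of the 54 were higher in treated roots and 9 were lower by at least 0.3. At 6 h their scores were -0.60, -0.84 and -0.59 in mock and 0.80, 1.11 and 0.11 in treated roots, with a median difference of 1.21.

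**Figure D3:**
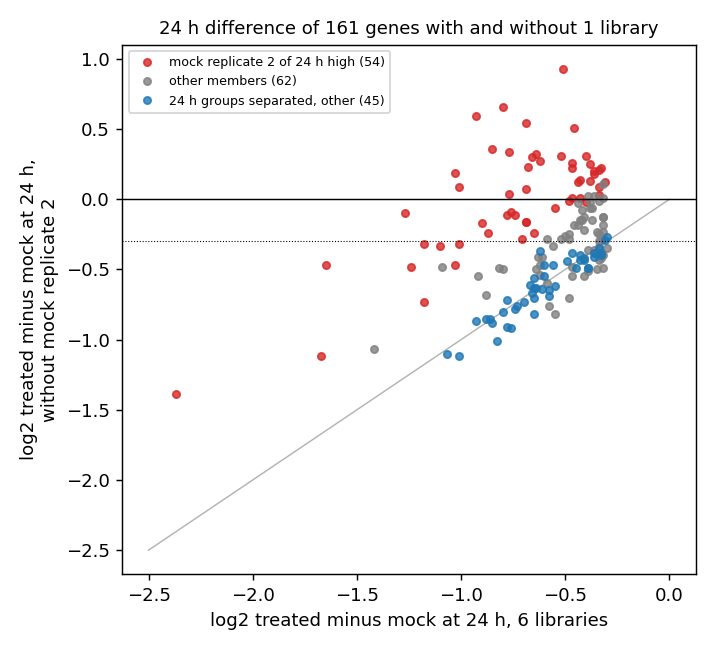
Each point is 1 of the 161 genes, with the 24 h difference from all 6 libraries on the x axis and without mock replicate 2 on the y axis, both in log2 units. The grey diagonal marks equal values and the dotted line -0.3; 36 genes lie above 0 on the y axis, 32 of them from the 54 in red.

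Other libraries also held a common order in these 54 genes. Treated replicate 1 was above replicate 2 and replicate 2 above replicate 3 at 24 h in 45 of the 54, against 20.5% of all genes tested. Treated replicate 3 was the lowest treated library of 6 h in 47, against 33.3% of all genes tested. The latter also held in 31 of the 46 separated genes. Across the 161 genes the excess of mock replicate 2 at 24 h over the other 2 mock libraries correlated with the excess of treated replicate 1 over the other treated libraries, at a Pearson r of 0.80 and a Spearman rho of 0.71 (n = 161 genes). Over all 19207 genes r was 0.13 and rho 0.08. The excess of mock replicate 2 correlated with the treated difference of 6 h at r = 0.61 and rho = 0.47 over the 161, and at -0.04 and -0.03 over all genes. For the excess of treated replicate 1 of 24 h against that 6 h difference, r was 0.68 and rho 0.46 over the 161. Over all genes they were 0.36 and 0.26. The libraries on the x and y sides differ in each of these, but the choice of the genes used them all, and genes of 1 library are not independent of each other. A gene high in treated replicate 1 met the 24 h condition only if its mock mean was higher still. By itself this raises the correlation of both excesses in the 161. Nothing is therefore read from the values of the 161 against those of all genes.

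The most abundant genes of the set were in this part. Os12g0555500, on chromosome 12, had 2445, 1504 and 3475 normalised counts in mock and 10549, 10554 and 4988 in treated roots at 6 h. By 24 h it stood at 6765, 21731 and 4276 in mock and 9465, 3857 and 3372 in treated roots. The 6 h groups were apart, and at 24 h treated replicate 1 lay above 2 of the 3 mock libraries. The difference was 1.81 ± 0.68 (SE) at 6 h and -0.78 ± 0.68 (SE) at 24 h, and the latter was -0.11 without mock replicate 2. The error is pooled over both times, so that of 6 h takes in the spread of 24 h.

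Its neighbour Os12g0555200 had 2165, 1955 and 3273 normalised counts in mock and 7372, 8206 and 3572 in treated roots at 6 h. By 24 h it stood at 3397, 20170 and 3868 in mock and 11848, 3405 and 2231 in treated roots. The 24 h difference turned from -0.52 to 0.31 without mock replicate 2. Next to them, Os12g0555100 had 81.6, 104 and 142 in mock and 221, 166 and 290 in treated roots at 6 h, and 198, 165 and 137 against 126, 115 and 143 at 24 h. In this gene mock replicate 2 was in the middle of its group, and the 24 h difference was -0.36 with and without it.

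Os07g0127600, on chromosome 7, had 1117, 884 and 684 normalised counts in mock and 5015, 8341 and 1267 in treated roots at 6 h. At 24 h it had 1564, 19262 and 2475 in mock and 6711, 1396 and 980 in treated roots, a difference of -1.01 ± 1.14 (SE) that became 0.09 without mock replicate 2. Os01g0124200, on chromosome 1, had 2058, 2386 and 2915 in mock and 4112, 5164 and 3220 in treated roots at 6 h, and 3667, 15647 and 3550 against 7439, 3806 and 3133 at 24 h. Here too the 24 h difference changed sign, from -0.40 to 0.31. Os01g0358100 had 1757, 2027 and 1856 against 2644, 3432 and 2200 at 6 h, and 3016, 7878 and 3400 against 5042, 3389 and 2463 at 24 h.

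Os12g0189300 had 1432, 821 and 1634 normalised counts in mock and 1881, 2989 and 2481 in treated roots at 6 h, and 3596, 10141 and 2604 against 4184, 2871 and 3220 at 24 h. Among these 6 most abundant genes the 24 h difference without mock replicate 2 was -0.11 in Os12g0555500 and between 0.09 and 0.31 in the others. The 161 genes together took between 0.381% and 0.442% of the reads in mock and 0.636% to 1.1% in treated libraries at 6 h. At 24 h they took 0.664%, 1.98% and 0.625% in mock and 0.972%, 0.515% and 0.432% in treated libraries.

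**Figure D4:**
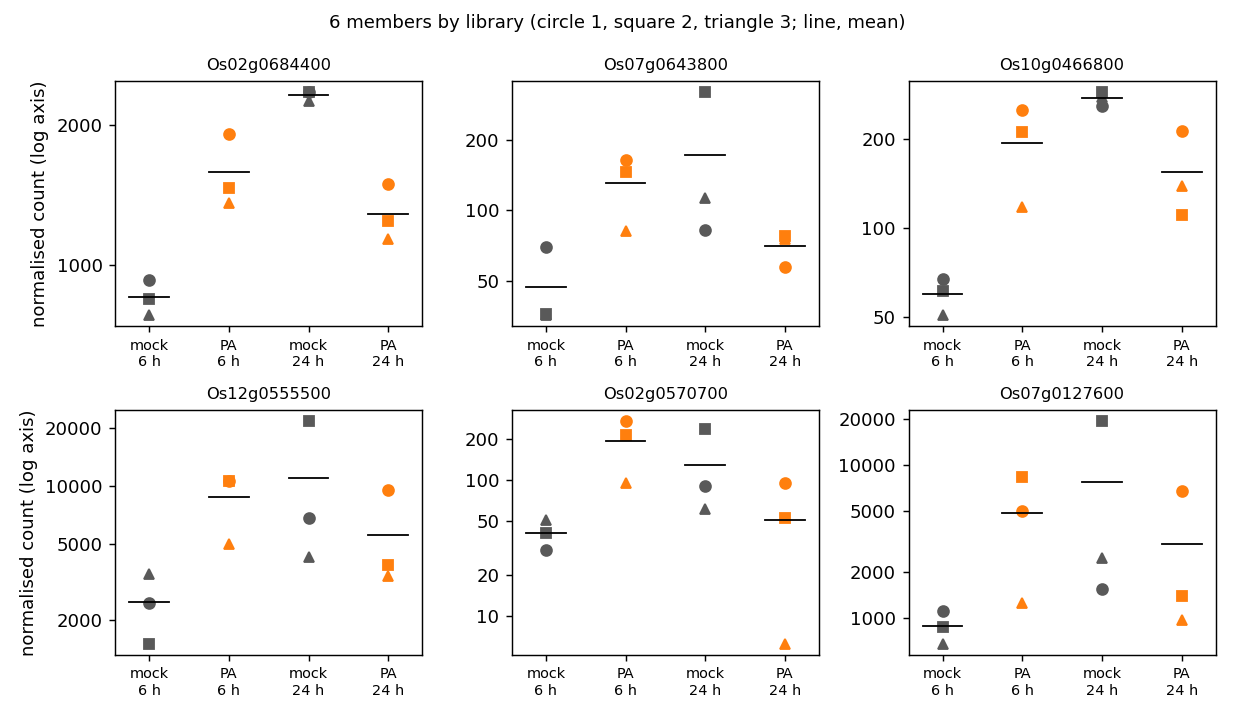
Normalised counts of 6 genes on log axes, with 3 libraries per group and a line at the mean. The 24 h mock libraries of Os02g0684400 lie between 2256 and 2360, while those of Os07g0127600 run from 1564 to 19262.

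The largest changes in both directions also came mainly from this part. Os11g0530600, on chromosome 11, had 12.2, 19.4 and 22.6 normalised counts in mock and 130, 332 and 68.2 in treated roots at 6 h. At 24 h it had 82.8, 1530 and 473 in mock and 835, 19.6 and 22.8 in treated roots. Both groups of 24 h were spread over more than 10-fold, and they overlapped. The differences were 2.90 ± 1.55 (SE) and -2.37 ± 1.55 (SE), with the error pooled over both times, and the second was -1.39 without mock replicate 2.

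Os09g0472900, on chromosome 9, had 23.1, 3.7 and 11.3 normalised counts in mock and 207, 95.6 and 35.5 in treated roots at 6 h, and 18.5, 379 and 43.1 against 132, 19.6 and 12.4 at 24 h. Its 24 h difference of -1.03 became 0.19 without mock replicate 2. Os11g0592200 had 374, 89.6 and 171 in mock and 1179, 454 and 457 in treated roots at 6 h, and 376, 1492 and 243 against 434, 167 and 140 at 24 h, where the difference of -1.24 became -0.48. In Os07g0663700 the values were 13.4, 12 and 13.2 against 74.7, 72.7 and 29.9 at 6 h, and 29.7, 151 and 41.1 against 90.3, 37 and 5.17 at 24 h. Its treated library 3 of 24 h was the lowest of all 12.

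Os07g0529000 differed from these genes in the libraries that carried it. It had 8.52, 18.5 and 10.3 normalised counts in mock and 19.7, 52.8 and 41.1 in treated roots at 6 h, and 97, 70.6 and 10.5 against 19.5, 52 and 2.07 at 24 h, so mock replicates 1 and 2 were both high. Os11g0608300 had 7.31, 6.47 and 3.76 against 17.7, 26.9 and 9.34 at 6 h, and 14.6, 54.2 and 5.74 against 25, 4.62 and 2.07 at 24 h.

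The remaining 62 genes were neither separated at 24 h nor high in mock replicate 2 by that measure. Their median level was 32.4 normalised counts, below the 91.2 of the whole set. The median difference was 0.79 at 6 h and -0.41 at 24 h, and the latter was -0.34 without mock replicate 2, with 32 of the 62 still lower by at least 0.3 and 4 higher. Of these 62, 8 were called higher at 6 h.

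Position on the chromosomes had no part in the choice. Another of the 161 lay within 10 table rows of the same chromosome for 35 of them, or 21.7%, while 7.63% of all genes tested had a member that near. Within 50 rows the shares were 43.5% and 32.2%. The genes formed 14 runs in which each gene was within 10 rows of the next. Chromosomes 7, 10, 11 and 12 had the highest shares of their tested genes in the set, at 1.43%, 1.22%, 1.47% and 1.24%, and chromosome 5 the lowest, at 0.497%. Neighbours can be copies of each other, and how the authors counted reads shared by copies is not given in the sources used here, so values of near-identical neighbours may be uncertain.

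The longest run was on chromosome 2, from Os02g0569000 to Os02g0572200, with 5 members among 10 tested genes. In this stretch 9 of the 10 were higher at 6 h and 8 were lower at 24 h, and the median 24 h difference of -0.52 was 0.05 without mock replicate 2. The choice of the genes fixed both directions in the 5 members. Of all 19207 genes tested, 9832 were higher at 6 h and 9978 lower at 24 h. Os02g0570700 had 30.4, 40.7 and 50.8 normalised counts in mock and 270, 212 and 95.3 in treated roots at 6 h, and 89.2, 236 and 61.2 against 94.5, 52 and 6.21 at 24 h. Its 24 h difference of -1.67 became -1.12 without mock replicate 2, and -0.62 when treated replicate 3 was dropped instead.

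Os02g0571100 had 15.8, 0 and 5.64 normalised counts in mock and 55.1, 44.8 and 25.2 in treated roots at 6 h, and 18, 125 and 25.8 against 70.9, 21.9 and 6.21 at 24 h. Os02g0571900 had 7.31, 4.62 and 0 against 21.6, 54.7 and 10.3 at 6 h, and 21.4, 170 and 33.5 against 55.6, 13.9 and 11.4 at 24 h. Os02g0569000 had 8.52, 7.39 and 10.3 against 31.5, 60.7 and 15.9 at 6 h, and 16.6, 175 and 28.7 against 58.4, 49.7 and 6.21 at 24 h. These 3 share a pattern of libraries, in which mock replicate 2 and then treated replicate 1 were the highest of 24 h. The fifth, Os02g0572200, did not share it, with 6.09, 9.24 and 9.4 against 9.83, 13.9 and 14.9 at 6 h and 15.1, 10.1 and 12.4 against 6.95, 16.2 and 6.21 at 24 h.

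On chromosome 7 the run from Os07g0127500 to Os07g0129300 held 4 members among 5 tested genes, and all 5 were higher at 6 h and lower at 24 h. In the 4 members the choice fixed both directions, so this count describes the run only. Os07g0127500 had 65.8, 52.7 and 68.6 normalised counts in mock and 248, 602 and 107 in treated roots at 6 h, and 138, 2839 and 364 against 1160, 248 and 82.8 at 24 h. Os07g0127700 had 318, 250 and 271 against 490, 504 and 359, and then 396, 1301 and 205 against 581, 356 and 193. Os07g0129300 had 6.09, 12 and 16.9 against 25.6, 28.9 and 20.5, and then 36.1, 89.5 and 33.5 against 23.6, 75.1 and 23.8. The median 24 h difference of the 5 was -0.47, and 0.09 without mock replicate 2.

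Another run of chromosome 7 held Os07g0217600, Os07g0218200 and Os07g0218700, the 3 tested genes of their stretch. Os07g0218700 had 0, 4.62 and 6.58 normalised counts in mock and 30.5, 49.8 and 15.9 in treated roots at 6 h, and 9.75, 199 and 23 against 68.1, 11.5 and 0 at 24 h. Os07g0218200 had 0, 0.924 and 0 in mock at 6 h, a single read in all, against 5.9, 27.9 and 4.67 in treated roots, and 6.33, 141 and 17.2 against 79.2, 8.08 and 0 at 24 h. No fold change is given for it, since a fitted value then depends on the constant added before the log. Os07g0217600 was more abundant, with 77.9, 91.5 and 111 against 219, 231 and 126 at 6 h, and 167, 330 and 51.7 against 107, 68.1 and 39.3 at 24 h.

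Pairs of neighbours did not all follow mock replicate 2. Os08g0190100, on chromosome 8, had 662, 727 and 765 normalised counts in mock and 1868, 2604 and 1006 in treated roots at 6 h, and 1551, 11444 and 1888 against 4553, 1762 and 1012 at 24 h, and its neighbour Os08g0189900 had 536, 1301 and 583 against 727, 430 and 337 at 24 h. Os01g0940700 had 311, 74.9 and 285 against 1313, 534 and 447 at 6 h and 427, 3590 and 301 against 1323, 341 and 207 at 24 h. The adjacent Os01g0940800 had 1383, 1002 and 770 against 1417, 2094 and 1543 at 6 h and 1338, 3712 and 632 against 1545, 717 and 578 at 24 h. By comparison, Os10g0467000, next to Os10g0466800, had 105, 105 and 63 against 215, 198 and 144 at 6 h, and 208, 203 and 185 against 172, 112 and 104 at 24 h. Both chromosome 10 genes were separated at both times and were called at 6 h.

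Lists of identifiers were compared with the set, and a list's name is its intended content only. The list for diterpenoid phytoalexin synthesis had 17 tested identifiers, of which 3 were members. Its medians were 0.91 at 6 h and -0.40 at 24 h, the latter 0.30 without mock replicate 2, and that library exceeded the other mock libraries by at least 1 log2 unit in 13 of the 17. In the list for PR1, PR5 and PR10 proteins 3 of 6 tested identifiers were members, with medians of 1.12 and -0.47, the latter -0.05 without mock replicate 2. The list for chitinases and beta-1,3-glucanases, enzymes that cut fungal wall polymers, had 2 members of 8 tested, with medians of 0.50 and -0.61, the latter -0.0032 without that library.

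The list for WRKY transcription factors had 1 member of 12 tested. That member was positive at 6 h, while the median of its list was -0.97 and 3 of the 12 were positive. At 24 h the median of that list was -0.30, and 0.07 without mock replicate 2. No member was on the lists for plastidial isoprenoid precursors, which feed diterpenoid synthesis (10 tested), phenylpropanoid entry (13), JAZ repressors of jasmonate signalling (7), DREB factors (4) or heat shock proteins (6). The isoprenoid precursor list had medians of 0.39 at 6 h and -0.30 at 24 h, with 8 of 10 positive and 8 of 10 negative, and mock replicate 2 was high in 7 of the 10. Without that library its 24 h median was 0.17, with 0 of 10 negative. In the phenylpropanoid entry list the medians were -0.08 and -0.18. They were -1.23 and -0.23 in the JAZ list, -2.48 and -0.01 in the DREB list, and -0.24 and 0.46 in the heat shock list. Without mock replicate 2 the 24 h medians were -0.08 for phenylpropanoid entry, 0.29 for JAZ, 0.07 for DREB and 0.49 for heat shock. In the JAZ list 6 of 7 were negative at 24 h with that library and 1 without it, and it was high in 5 of the 7. Among these lists limma called 1 PR and 1 chitinase or glucanase identifier higher at 6 h, and 1 heat shock identifier higher at 24 h.

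Most listed members have been described above, and 2 remain. Os12g0628600, on chromosome 12, had 297, 186 and 615 normalised counts in mock and 1129, 1022 and 706 in treated roots at 6 h, and 763, 2306 and 506 against 998, 316 and 456 at 24 h. Os11g0490900, on chromosome 11, had 70.6, 78.5 and 82.7 against 106, 152 and 108 at 6 h, and 109, 302 and 58.4 against 128, 94.7 and 71.4 at 24 h. Mock replicate 2 was the highest library of 24 h in both.

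The genes at the bounds are given among those that met every other condition. At 6 h the smallest differences inside were 0.51 in Os06g0314000 and Os07g0134700, and the largest outside were 0.50 in Os03g0184300, just under the bound before rounding, and 0.49 in Os02g0226200. At 24 h Os08g0263400 and Os09g0545300 inside and Os07g0296000 and Os05g0439200 outside were all at -0.30 after rounding. For the minimum mean, Os11g0704300 and Os07g0134700 were inside at 10 and 10.1 normalised counts, and Os04g0437000 and Os04g0359900 outside at 9.9 and 9.31.

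The genes outside the set whose levels over the 12 libraries were most like its mean were Os07g0150700, at a Pearson r of 0.95, and Os05g0567500 and Os07g0147900, both at 0.93. Os07g0150700 had 353, 361 and 344 normalised counts in mock and 455, 481 and 427 in treated roots at 6 h, and 437, 605 and 410 against 479, 390 and 413 at 24 h. It missed both bounds, at 0.36 and -0.16, and its 24 h difference was 0.01 without mock replicate 2. All 3 had separated groups at 6 h.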

How the data were processed

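Per the submitters' processing notes, FastQC 0.11.8, Trimmomatic 0.38, STAR 2.6.1d and DESeq2 were used. Which program counted reads, and on which genome build, is not given in the sources used here. Libraries were made with a 3′ mRNA kit from 2 µg of RNA, per the labels' protocols. The authors deposited a normalised signal per gene, that is, reads divided by a size factor per library. Whole numbers of reads (within 0.01) were recovered for at least 99.985% of nonzero values per library.

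Of 35833 rows, 166 without an Os identifier were left out. Genes with a mean of at least 10 were tested on log2(normalised count + 2) by limma 3.58.1 in R 4.3.3, with 4 group means over 12 libraries, trend and robust moderation, and Benjamini-Hochberg adjustment at 0.05. The recovered reads were also tested with edgeR 4.0.16 and DESeq2 1.42.0. Group and number came from the titles; the source names number 3 treated samples differently. Nothing states that samples came from separate cultures, so p measures the spread between these pools. Same-numbered libraries of 6 h deviated together (r = 0.305, 0.288 and 0.126) and those of 24 h did not (-0.187, 0.0505 and 0.0212). All calls and standard errors are from the fit without pairing or grouping by replicate number unless one is named. The spread of each gene was pooled over the 4 groups, so its standard error takes in libraries of both times.

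The members and lists were chosen with earlier results of these data known. Lists held recalled identifiers. Named genes were the 12 with the largest smaller change, the 6 most abundant, the 6 with the largest 24 h difference among separated genes, listed members, those at the bounds and the 3 most similar outsiders; others were named for their position or as the called genes after values were seen. No promoter or protein sequence was used here.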

Additional observations from a re-analysis of the deposited data

Results flagged for a closer look

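Because the genes were chosen for opposite differences at the 2 times, both results below follow from that choice. The effect was lower at 24 h than at 6 h by limma's test of the difference in 33 of the 161 genes. In 46 of the 161 the treated libraries all lay above mock at 6 h and all below it at 24 h; for this count the difference was not tested.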

How the results depend on the processing

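The number of genes meeting the choice was 168 with a pseudocount of 0.5 and 128 with 8, 159 with size factors over all 12 libraries and 166 with TMM, but 244 with no minimum mean and 99 with a minimum of 50. Leaving out 1 library gave 102 to 271 genes. With a 6 h library out, separation was asked of fewer libraries, which by itself adds genes. The lowest count came without mock replicate 2 of 24 h, when 84 of the 102 were members, and the highest without treated replicate 3 of 6 h, when 157 of the 271 were. Genes separated at 24 h numbered 46 to 78 in these refits, a count that cannot fall when fewer libraries have to be apart. The median difference ran from 0.80 to 0.91 at 6 h and from -0.68 to -0.33 at 24 h, and members called numbered 2 to 36 at 6 h, 2 to 6 at 24 h and 20 to 47 in the difference. Calls over all genes tested numbered 3 to 201, 2 to 13 and 27 to 143. With a replicate block by title numbers the calls were 47, 7 and 51, and by source-name numbers, which form no full pairs, 7, 0 and 12. With the latter, 46 members had an unadjusted p under 0.05 by limma at 24 h. The choice favours that number, and it was not counted over all genes, so nothing is read from it. Among all genes tested the calls were 252, 15 and 132 by title numbers, and 20, 0 and 16 by source-name numbers. DESeq2 called 45, 8 and 49 members and edgeR 34, 5 and 31, of 222, 23 and 147 and 132, 11 and 57 genes called. The share of members near another was 21.7% within 10 rows and 43.5% within 50. Among 33 named members 10 of the 24 h differences turned positive without mock replicate 2 of 24 h. The motif search was not run. Few reads limit genes near the minimum mean. The causes were not tested.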
